A study of Drosophila melanogaster with 10 samples.

Results

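RNA was compared between S2 cells after knockdown (KD) of Arp6 and S2 cells after the control knockdown of Luc, in 4 of the 10 libraries of the series. The libraries were chosen by the column names of 1 deposited table, which hold 2 libraries of Arp6 KD and 2 of Luc KD, numbered replicate 1 and replicate 2. The 4 libraries are called set 2. S2 is a Drosophila melanogaster line derived from late embryos, and its cells resemble hemocytes, the blood cells of the fly. The first group received Arp6 knockdown and the second received Luc knockdown, and every library of both groups also came from cells transfected with wild-type Achaete (Ac WT) and Daughterless (Da). No library without the transfected factors belongs to set 2, and both groups therefore carry Ac and Da. The cells grew in Schneider's medium with 10% fetal bovine serum, per the labels. Neither the sequence targeted by a knockdown nor its duration was found in the labels. No label tells whether libraries of 1 group stem from independent cultures, and the tests therefore reflect a spread between libraries that can be of technical origin. The remaining 6 libraries, called set 1, comprise H2A.Z KD and Luc KD with Ac WT, and Luc KD with the variant Ac R29G. Set 1 shares no library with set 2 and is used below to define gene lists and for the values of H2A.Z KD set beside those of Arp6 KD. The series title names gene activation by proneural proteins and a role of Arp6 in it.

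Arp6 is an actin-related protein of the nuclear SWR1-type complex, which exchanges the histone H2A of a nucleosome for the variant H2A.Z. In flies H2A.Z is encoded by His2Av, and the exchange is carried out by complexes that hold the ATPase Domino and, in part, the acetyltransferase Tip60. Ac is a basic helix-loop-helix transcription factor that pairs with Da and gives ectodermal cells the fate of sensory organ precursors, by turning on genes such as scabrous (sca) and phyllopod (phyl).

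The table held 11799 genes, of which 10605 had a mean value of at least 1 over the 4 libraries and were tested, and 7408 had a mean of at least 20. The other 1194 genes were under the minimum. Values are size-factor-scaled reads, that is, reads divided by 1 factor per library. The libraries held 10246872 and 10608470 reads in Arp6 KD, and 9396318 and 9966586 reads in Luc KD (replicates 1 and 2). The 12 hemocyte markers were all present, with summed values of 264072 and 238990 in Arp6 KD, against 223289 and 206849 in Luc KD. Of the fat body markers only Lsp2 and Fbp1 had a row, at 0 to 2.04 in every library. Neuron markers summed to 347 and 432 in Arp6 KD, against 359.7 and 455 in Luc KD, and 3 of the 6 had a mean of at least 20. All 5 epithelium markers had such a mean, with sums of 5510 and 5491 in Arp6 KD, against 5269 and 5149 in Luc KD. So did 2 of 4 glia markers (sums of 1459 and 1522, against 1355 and 1395, mostly moody) and 2 of 5 muscle markers. In bulk RNA, fewer cells of a type and less RNA per cell cannot be told apart.

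The degree of knockdown and the level of the transfected genes differed between the replicates, so the ratio of the replicate 1 libraries (pair 1) and that of the replicate 2 libraries (pair 2) are given apart for Arp6, for the transfected genes and for the gene lists. Each pair has 1 library a group and is a description. Arp6 (FBgn0011741, BDGP6 chromosome X, 15735774 to 15737120, minus strand) had 386 and 96.5 scaled reads in the Arp6 KD libraries, against 483 and 438 in the Luc KD libraries. In pair 1 the Arp6 KD library thus held 79.8% of the Luc KD value (95% exact counting interval 69.4 to 91.6), and in pair 2 it held 22.04% (17.6 to 27.4). The interval covers counting error only. The labels thus hold in direction in both pairs, and the Arp6 KD library of replicate 1 kept most of the Arp6 RNA. The log2 difference over the 4 libraries was -1.25 (SE 0.51, adjusted p = 0.701, limma) and did not pass the threshold of 0.05. Without the Arp6 KD library of replicate 1 it was -2.24. That value rests on 1 Arp6 KD library, and the library left out is the one that kept most of the Arp6 RNA.

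The transfected genes were lowest in that same library. The value of ac (FBgn0000022, BDGP6 chromosome X, 370031 to 370947, plus strand) was 9869.8 and 26670.0 in Arp6 KD, against 20334 and 28708 in Luc KD, with log2 ratios of -1.04 and -0.11 in pairs 1 and 2. The value of da (FBgn0267821, BDGP6 chromosome 2L, 10388105 to 10393228, plus strand) was 23754 and 53698 in Arp6 KD, against 51739 and 65741 in Luc KD, with log2 ratios of -1.12 and -0.29. Replicate 1 was below replicate 2 in both groups, and the gap between the groups was wide in pair 1 and narrow in pair 2, which is the reverse of the order of the Arp6 ratios. Counts assigned to ac and da can hold reads of transfected and of endogenous copies, which cannot be told apart here. The fitted log2 differences were -0.57 for ac (SE 0.39, adjusted p = 0.74, limma) and -0.71 for da (SE 0.32, adjusted p = 0.702), and neither passed. Without the Arp6 KD library of replicate 1 the difference of ac was 0.14.

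Further genes were low in the same library, and they were chosen after their values were seen. The gene w, which encodes the White transporter of eye pigment precursors, had 4336 and 10019.6 in Arp6 KD, against 11016 and 11636 in Luc KD. Hsp70Bb had 2832 and 7662 in Arp6 KD, against 6219 and 8671 in Luc KD, and Hsp70Ba had 58.1 and 201, against 169 and 187. In pair 1 the log2 ratios of w, Hsp70Bb and Hsp70Ba were -1.35, -1.13 and -1.53, and in pair 2 they were -0.22, -0.18 and 0.10. The Hsp70 genes are near-identical copies whose reads can be split between them, so these values are uncertain, and not every copy followed. Hsp70Ab had 142 and 163 in Arp6 KD, against 99.4 and 108 in Luc KD. What the values of ac, da, w and Hsp70Bb share was not tested.

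His2Av itself (FBgn0001197, BDGP6 chromosome 3R, 26866929 to 26869220, plus strand) was measured at 4162 and 3728 in Arp6 KD, against 3616 and 3449.8 in Luc KD. Both Arp6 KD values lay above both Luc KD values, by 0.20 and 0.11 on the log2 scale in pairs 1 and 2, but the fitted difference of 0.16 did not pass (adjusted p = 0.702, limma).

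**Figure D1:**
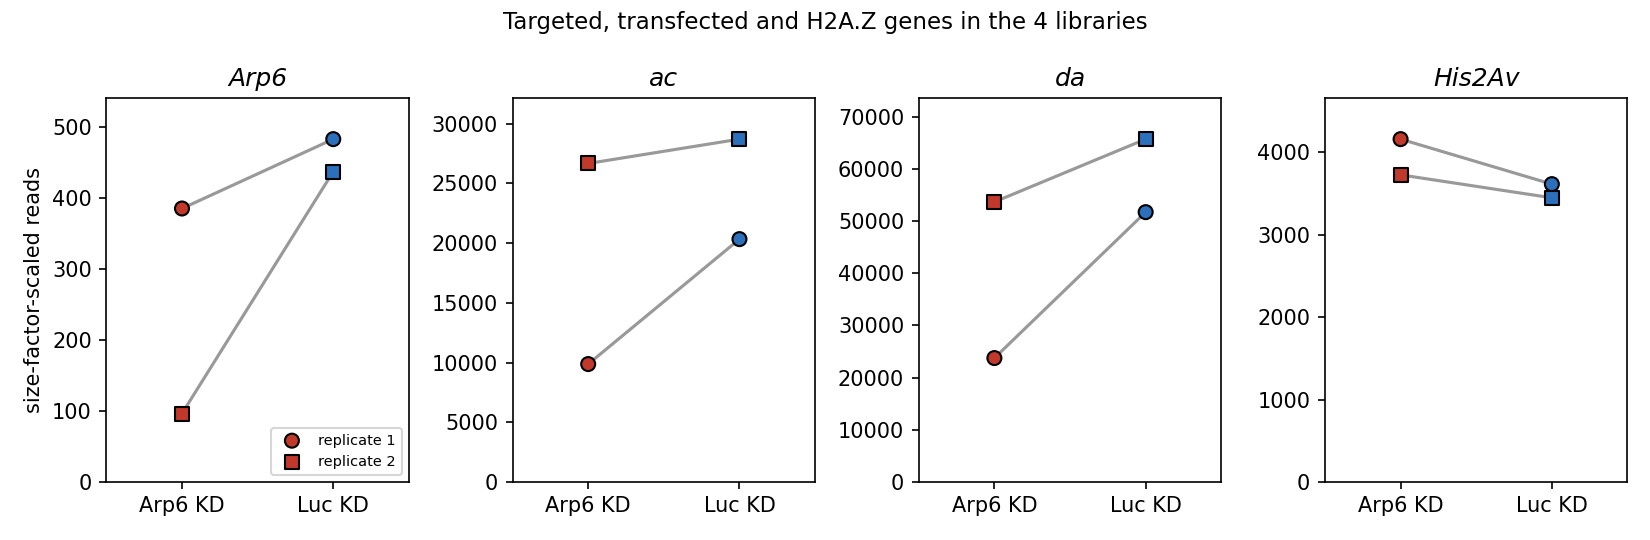
Size-factor-scaled reads (vertical axes, each from 0) of Arp6, ac, da and His2Av in the Arp6 KD (red) and Luc KD (blue) libraries, with a line joining the libraries of 1 replicate. Arp6 is lowest in Arp6 KD replicate 2 at 96.5, whereas ac and da are lowest in Arp6 KD replicate 1 at 9870 and 23754.

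Across all genes the number of calls between Arp6 KD and Luc KD depended on the test. The limma test called 3 of 10605 genes (0.0283%) at an adjusted p under 0.05, 2 of them higher (0.0189%) and 1 lower (0.00943%) in Arp6 KD, and 739 genes (6.97%) had an unadjusted p under 0.05. The quasi-likelihood test of edgeR on the recovered reads called the same 3 genes (0.0371% of 8087). DESeq2 called 16 (0.136% of the 11799 genes it was given, part of which received no adjusted p). These fits left the replicate number out. With it as a block, limma called 0 genes and edgeR called 870 (10.8% of 8087). Arp6, ac and da were among the 870, whereas limma with the block gave Arp6 an adjusted p of 0.272. CG14516 (FBgn0039640, BDGP6 chromosome 3R, 29138662 to 29145787, plus strand) rose, with 2022 and 1854 in Arp6 KD, against 1203 and 1081 in Luc KD (log2 difference 0.76, SE 0.08, adjusted p = 0.0349). CG15695 (FBgn0038832, BDGP6 chromosome 3R, 20842140 to 20844981, plus strand) rose, with 1680.2 and 1536 in Arp6 KD, against 994 and 957 in Luc KD (log2 difference 0.72, SE 0.07, adjusted p = 0.0349). CG3335 (FBgn0036018, BDGP6 chromosome 3L, 9624237 to 9627321, plus strand) fell, with 298 and 271 in Arp6 KD, against 609 and 636 in Luc KD (log2 difference -1.13, SE 0.09, adjusted p = 0.0125). For each of the 3 genes called by limma the replicate libraries lay close together and the groups far apart. The ratios of both pairs were alike, at 0.75 and 0.78, 0.76 and 0.68 and -1.03 and -1.23. The test selects for such values, so they add no support to the calls. The limma calls depended on single libraries: the set of genes called changed whichever library was left out. Each such fit leaves 1 library in a group.

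The 13 further calls of DESeq2 were all higher in Arp6 KD, and they were chosen for the text after their values were seen. They held Df31, a protein of decondensed chromatin, with 26845 and 25207 in Arp6 KD, against 20022 and 17807 in Luc KD. Several encode secreted or surface proteins. Tig (Tiggrin, a matrix ligand of integrins) had 7212 and 6142 in Arp6 KD, against 5231 and 4683 in Luc KD, Fas1 (Fasciclin 1, an adhesion protein) had 1289 and 1169, against 872 and 867, and fat-spondin had 4975 and 4137, against 3656 and 3093. The actin-severing protein gelsolin (Gel) had 7389.9 and 6997 in Arp6 KD, against 5594 and 5369.6 in Luc KD, and Hml (Hemolectin, a clotting protein of hemocytes) had 47473 and 53693, against 38296 and 40959. Both Arp6 KD libraries lay above both Luc KD libraries for each of these 6 genes, at log2 ratios of 0.31 to 0.56 in every pair, and under limma their adjusted p-values ran from 0.182 to 0.652. Genes of high expression were more often higher in Arp6 KD: of the 1852 genes with a mean of at least 1064.63, 72.0% lay above 0. The part of the expression level in these calls was not tested.

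Among the genes with a mean of at least 20, 10 (0.135%) were at least 2-fold higher and 40 (0.54%) at least 2-fold lower in Arp6 KD in pair 1, against 7 (0.0945%) and 11 (0.148%) in pair 2. Only 4 genes passed this fold in both pairs, 1 higher (0.0135%) and 3 lower (0.0405%). More genes differed between libraries of the same group, where 156 genes differed at least 2-fold between the 2 Arp6 KD libraries and 65 between the 2 Luc KD libraries. The SD of the log2 ratio over the 7408 genes was 0.292 and 0.237 within Arp6 KD and within Luc KD, and 0.244 and 0.205 in pairs 1 and 2. Across these genes the ratios of the pairs, which share no library, correlated at r = 0.38 (Spearman's rho 0.40), and 2554 genes (34.5%) had opposite signs. The genes are not independent replicates, and the labels do not say what a replicate number marks.

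The genes with the largest ratios in both pairs were chosen by their values and are a description. The gene firl was the one at least 2-fold higher in both pairs, with 126 and 113 in Arp6 KD, against 52.9 and 52.5 in Luc KD. The sodium channel gene ppk13 of the pickpocket family had 32.6 and 24.6 in Arp6 KD, against 10.6 and 13.6 in Luc KD, and CG7069 had 30.6 and 32.2, against 14.8 and 13.6. CG33494 had 789 and 729 in Arp6 KD, against 459 and 399 in Luc KD, just outside the threshold (adjusted p = 0.0517, limma). All 4 were expressed at low to moderate levels, and their Arp6 KD values lay above their Luc KD values without overlap. CRMP, of the collapsin response mediator protein family, had 199 and 206 in Arp6 KD, against 124 and 118 in Luc KD, and CG3376 had 374 and 382, against 216 and 238. The remaining members of the 12 genes, CG14757, CG43795, CG9961 and the antisense RNA asRNA:CR46354, had values of 25.5 to 55.1 in Arp6 KD, against 12.6 to 31.7 in Luc KD. The last of them cannot be told apart from the gene it overlaps, since it is not given whether counting used the strand.

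The genes lower in both pairs were mostly scarce. CG1801 had 7.14 and 18.0 in Arp6 KD, against 26.4 and 43.8 in Luc KD, and CG12923 had 6.12 and 22.7, against 16.9 and 49.6. Both were at least 2-fold lower in each pair, but for CG12923 the groups overlapped because replicate 2 was high in both. APC7, a subunit of the anaphase-promoting complex, had 11.2 and 17.0 in Arp6 KD, against 24.3 and 34.0 in Luc KD. The tetraspanin gene Tsp42Ep had 20.4 and 30.3 in Arp6 KD, against 41.3 and 57.4 in Luc KD, and the organic anion transporter gene Oatp26F had 13.3 and 14.2, against 23.3 and 35.0. The values of these 5 genes rest on at most 59 reads a library. In bgcn, a differentiation gene of the germline, the Arp6 KD libraries held 34.7 and 60.5, against 59.2 and 122 in Luc KD, with log2 ratios of -0.76 and -0.99 and overlapping groups. Of the 12 genes named by this rule only CG3335 passed the test.

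**Figure D2:**
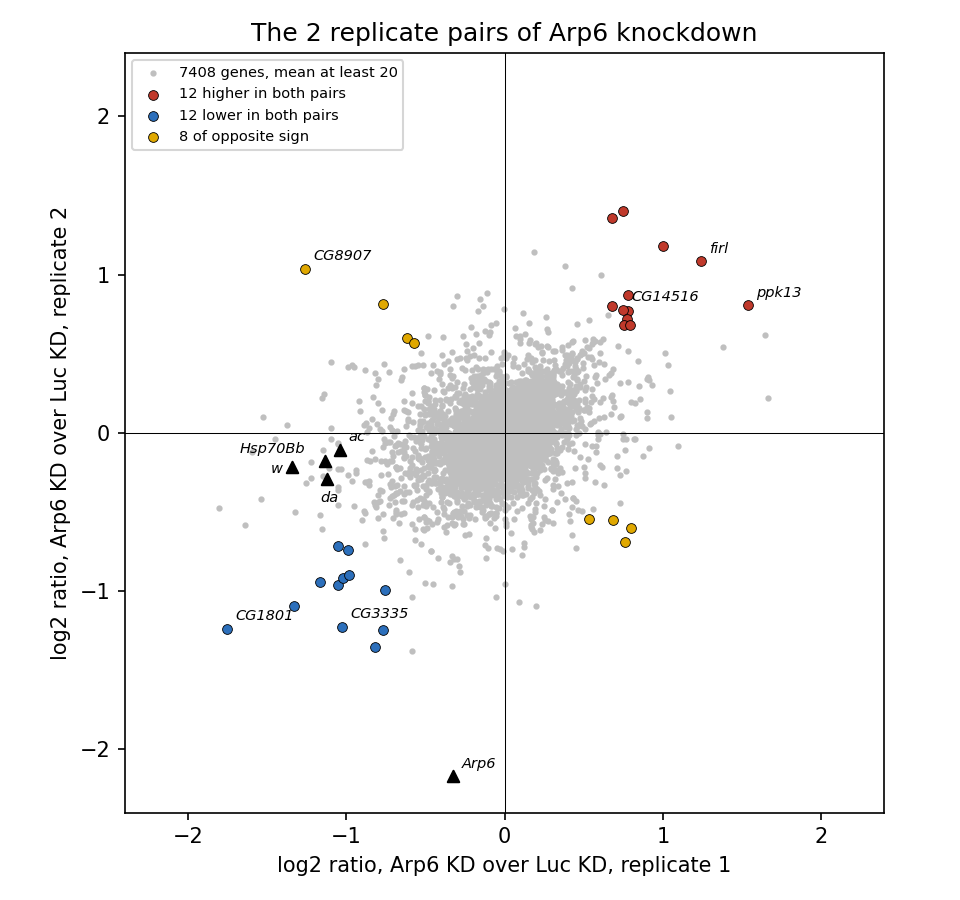
Log2 ratio of Arp6 KD over Luc KD in replicate 1 (horizontal) and in replicate 2 (vertical) for 7408 genes (grey). Coloured points are the 12 genes higher in both pairs, the 12 lower in both pairs and the 8 of opposite sign with the largest ratios, and triangles are Arp6 and the genes low in Arp6 KD replicate 1. The triangles of ac, da, w and Hsp70Bb lie beyond -1 in replicate 1 and near 0 in replicate 2, and Arp6 lies at -0.33 and -2.17.

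The series title concerns genes that proneural proteins activate. In set 1, 24 genes had more RNA with Ac WT than with R29G by a log2 difference of at least 1 (limma with the deposited table as a block, adjusted p under 0.05). Limma called 0 of the 24 in Arp6 KD, and 2 had an unadjusted p under 0.05 (limma, against 6.97% of all genes). edgeR without the replicate block tested 22 of the 24 and DESeq2 gave an adjusted p to 9, with 0 calls by either. Their median log2 difference was -0.33, against -0.01 over all genes tested, and 17 of the 24 were below 0, against 52.9% of all genes. The pairs differed: the median was -0.57 in pair 1, with 21 of 24 below 0 against 53.4% of all genes, and -0.004 in pair 2, with 12 of 24 below 0 against 52% of all genes. Both Arp6 KD values were below both Luc KD values in 4 of the 24 genes (background 20.4%), and above them in 0 (background 18.6%). The median was 0.34 without the Arp6 KD library of replicate 1 and 0.12 without the Luc KD library of replicate 2, so its direction rests on these libraries. With no minimum on the set 1 difference the list held 48 genes, with a median of -0.18.

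The library of replicate 1 of Arp6 KD, which had the least ac and da RNA, was the lowest of the 4 for 21 of the 24 genes, against 29.5% of all genes tested. Arp6 KD replicate 2, which had the least Arp6 RNA, was the highest for 12 of the 24, against 20.5% of all genes tested. Luc KD replicate 2 was the highest for 11, against 27.1%. The summed values of the 24 genes were 834 and 2114 in Arp6 KD, against 1131 and 2079 in Luc KD. Replicate 1 was below replicate 2 in both groups, as for ac. The sum was highest in Arp6 KD replicate 2, whereas ac was highest in Luc KD replicate 2. The part that the level of ac and da had in these values was not tested.

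Known proneural targets are given here by library. The gene sca, which encodes a secreted protein that spaces sensory precursors, had 245 and 711 in Arp6 KD, against 245 and 616 in Luc KD. The adaptor gene phyl had 21.4 and 69.99 in Arp6 KD, against 24.3 and 54.5 in Luc KD, and mira (Miranda, which carries fate determinants in dividing neuroblasts) had 33.7 and 72.8, against 40.2 and 61.3. For all 3 genes the groups overlapped, both replicate 2 libraries lay far above both replicate 1 libraries, and in pair 2 the Arp6 KD value was the higher one. Their log2 ratios were -0.004, -0.18 and -0.25 in pair 1, and 0.21, 0.36 and 0.25 in pair 2.

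Other members were below their control in both pairs. CG12111 had 29.6 and 96.5 in Arp6 KD, against 106 and 134 in Luc KD, and CG17321 had 16.3 and 20.8, against 24.3 and 29.2. The zinc finger factor nerfin-1 had 3.06 and 9.46 in Arp6 KD, against 9.52 and 15.6 in Luc KD, and CG14312 had 0 and 0.946, against 8.46 and 1.95, which is within a few reads. These are the 4 genes whose groups did not overlap, and CG12111, nerfin-1 and CG14312 were named after their values were seen. At the other end, NaPi-III, a gene of the sodium-phosphate transporter family, had 40.8 and 103 in Arp6 KD, against 40.2 and 72.9 in Luc KD, and hig had 18.4 and 40.7, against 14.8 and 31.1, with ratios above 0 in both pairs. CG13743 had log2 ratios of opposite sign, at -0.33 and 0.80. The 9 genes with less RNA under Ac WT than under R29G in set 1 had a median of -0.01 in Arp6 KD, with 5 below 0. Their median was -0.05 in pair 1, with 8 of 9 below 0 against 53.4% of all genes, and 0.06 in pair 2, with 4 of 9 below 0 against 52% of all genes.

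A wider list of proneural and sensory precursor genes held da and emc, which encodes an inhibitor that binds proneural proteins. Of its 30 genes 21 were tested by limma, with 0 called and 0 at an unadjusted p under 0.05. edgeR without the replicate block tested 17 of them and DESeq2 gave an adjusted p to 15, with 0 calls by either. The median was -0.11 in pair 1 and 0.06 in pair 2. In pair 1, 17 of 21 were below 0, against 53.4% of all genes, and in pair 2, 6 of 21, against 52%. The 21 genes include the transfected ac and da. The repressor gene nvy had 902 and 2152 in Arp6 KD, against 1333 and 2334 in Luc KD, and emc had 1074 and 1788, against 1362 and 1989.9. Both genes followed the replicate number more than the knockdown. The 16 tested genes of the Notch core pathway had a median of 0.01 (0.04 in each pair), with 0 unadjusted p-values under 0.05 (limma). None of these tools called any of them, and edgeR tested 15 and DESeq2 14. The 9 tested E(spl) and Bearded genes, which answer to Notch or to proneural factors, had a median of 0.09 (0.09 in pair 1 and 0.16 in pair 2). Of the 9 genes 1 had an unadjusted p under 0.05 (limma, against 6.97% of all genes). They also had 0 calls, but edgeR tested only 4 and DESeq2 only 3 of them.

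**Figure D3:**
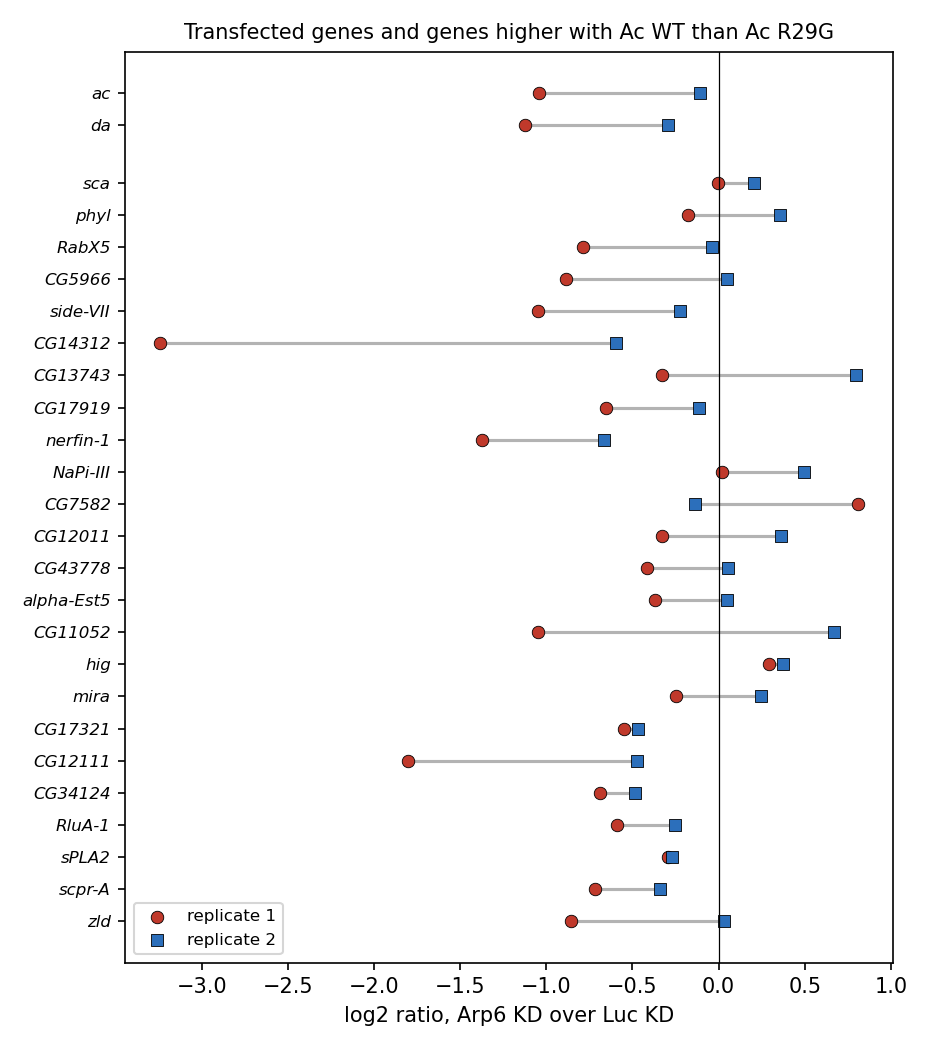
Log2 ratio of Arp6 KD over Luc KD (horizontal) in replicate 1 (red circles) and replicate 2 (blue squares) for ac, da and the 24 genes with more RNA under Ac WT than under R29G in set 1, ordered by their set 1 difference. The circles lie below 0 for 21 of the 24 genes and the squares for 12.

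Genes that had been called in H2A.Z knockdown had medians of the same sign in both pairs. In set 1, 293 genes were higher and 262 lower in H2A.Z KD than in Luc KD (limma, adjusted p under 0.05), and 261 of the lower ones were tested in set 2. The 293 genes had a median log2 difference of 0.17 in Arp6 KD, against 0.64 in H2A.Z KD, with 0.18 in pair 1 and 0.16 in pair 2. The 261 genes had a median of -0.18 in Arp6 KD, against -0.79 in H2A.Z KD, with -0.17 in both pairs. Over all genes tested the median in Arp6 KD was -0.01. Wider lists, from a fit of set 1 with the deposited table as a block, held 2177 and 2278 tested genes with medians of 0.10 and -0.09.

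The counts went the same way. Of the 293 genes 265 were above 0 in Arp6 KD, against 47.1% of all genes, and for 173 both Arp6 KD values lay above both Luc KD values, against 18.6% of all genes, while for 7 they lay below. Of the 261 genes 233 were below 0, against 52.9% of all genes, and for 138 both Arp6 KD values lay below both Luc KD values, against 20.4% of all genes, while for 5 they lay above. Both pair ratios were above 0 for 229 of the 293 genes, against 28.3% of all genes, and below 0 for 200 of the 261, against 33.8%. Both genes that rose in Arp6 KD, CG14516 and CG15695, belong to the 293. Limma called no other member of the 293 or 261 genes in Arp6 KD, whereas DESeq2 also called Df31, CG32368, Tig, Fas1, Hsc70-3 and fat-spondin, all of the 293. DESeq2 thus called 8 of the 262 higher-list genes with an adjusted p, against 0.136% of the 11799 genes it was given. It called 0 of 224 in the lower list. CG3335, which fell in Arp6 KD, is on the wider lower list. DESeq2 called 14 of 1842 genes of the wider higher list and 1 of 1937 of the wider lower list.

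The medians kept their sign without the library with the least Arp6 RNA, at 0.23 and -0.21 without Arp6 KD replicate 2, and they were 0.12 and -0.13 without Arp6 KD replicate 1. The level of expression also moved with the difference. When 7408 genes were split by their mean into 4 bins of 1852, the median over all genes ran from -0.07 in the bin of lowest expression to 0.06 in that of highest expression in Arp6 KD, and from -0.18 to 0.16 in H2A.Z KD. Within the lowest bin 27 of 37 higher-list genes were above 0, against 39.1% of all genes there, and 67 of 76 lower-list genes were below 0, against 60.9%. Within the highest bin 119 of 120 higher-list genes were above 0, against 72.0% of all genes there, and 16 of 19 lower-list genes were below 0, against 28.0%. Across 7402 genes the fitted differences of Arp6 KD and H2A.Z KD, which share no library, correlated at r = 0.48 (rho 0.51). For single pairs of set 2 against single tables of set 1, r lay between 0.38 and 0.40. These correlations are descriptions across genes, which share their level of expression and transfection with Ac and Da.

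The members of the higher list with the largest ratios in both pairs were chosen by their values. NimC1, a phagocytosis receptor of the Nimrod family on plasmatocytes, had 205.05 and 201 in Arp6 KD, against 130.1 and 119.6 in Luc KD, with log2 ratios of 0.65 and 0.75 and a set 1 difference of 2.58. NT5E-2, a nucleotidase gene, had 29.6 and 35.9 in Arp6 KD, against 19.0 and 17.5 in Luc KD. CG15611 had 179.5 and 175 in Arp6 KD, against 121 and 117 in Luc KD, and CG10764 had 42.8 and 33.1, against 15.9 and 22.4. In all 4 genes the groups stood apart, at a smaller ratio than in H2A.Z KD. Of the lower list, the hexosaminidase gene Hexo1 had 266 and 218 in Arp6 KD, against 395 and 349 in Luc KD, with log2 ratios of -0.57 and -0.68 and a set 1 difference of -1.81. CG3457 had 16.3 and 10.4 in Arp6 KD, against 29.6 and 28.2 in Luc KD, and CG32305 had 50.0 and 54.9, against 70.9 and 81.7. FipoQ, CG14780 and asRNA:CR44806 had negative ratios in both pairs, but replicate 2 was high in both groups and the groups overlapped.

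The piRNA pathway, which silences transposons in the germline, had members on both lists. The effector gene piwi, of the higher list, had 23.5 and 20.8 in Arp6 KD, against 14.8 and 11.7 in Luc KD. The gene mael, of the lower list, had 409 and 380.2 in Arp6 KD, against 451 and 432 in Luc KD, with log2 ratios of -0.14 and -0.18. The gene aub, also of the lower list, had 905 and 887 in Arp6 KD, against 993 and 871 in Luc KD, and its groups overlapped. The strongest negative value of the lower list was that of tomb, which had 0 reads in both Arp6 KD libraries and 4.23 and 3.89 scaled reads in the Luc KD libraries, so it rests on a few reads. The lncRNA:CR43148, of the higher list, had 16.3 and 16.1 in Arp6 KD, against 5.29 and 5.84 in Luc KD, and did not pass (adjusted p = 0.648, limma). piwi, aub, tomb and lncRNA:CR43148 were named after their values were seen.

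**Figure D4:**
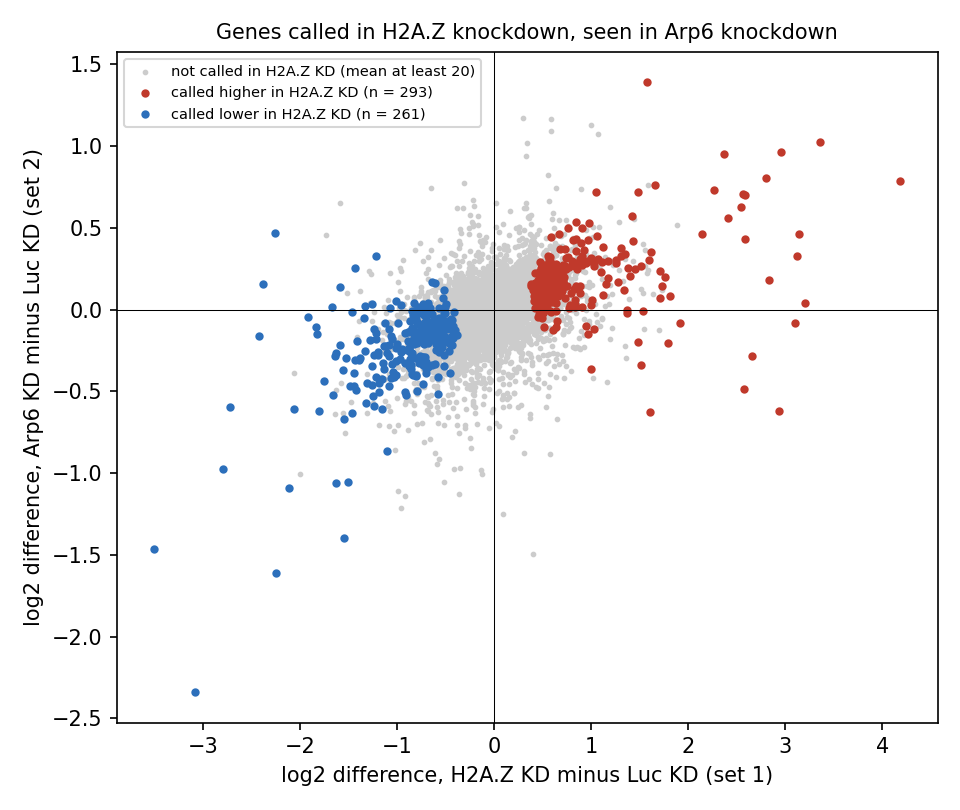
Log2 difference of Arp6 KD minus Luc KD in set 2 (vertical) against that of H2A.Z KD minus Luc KD in set 1 (horizontal), for genes called higher (red, 293) or lower (blue, 261) in H2A.Z KD and for the other genes with a mean of at least 20 (grey). Of the red points 265 lie above 0 on the vertical axis and of the blue points 233 lie below it.

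The genes of the complex that Arp6 belongs to had a median near 0. Of 20 listed genes of the SWR1 and Tip60 complexes 19 were tested, with a median of 0.01 (-0.06 in pair 1 and 0.04 in pair 2). Limma, edgeR without the replicate block and DESeq2 (which tested 18 of them) made 0 calls. Of the 19 genes 1 had an unadjusted p under 0.05 (limma, against 6.97% of all genes). The ATPase gene dom had 6826 and 7791 in Arp6 KD, against 6281 and 6926 in Luc KD, and the acetyltransferase gene Tip60 had 357 and 559, against 376 and 502. The helicase genes pont and rept had 966 and 848 and 888 and 848 in Arp6 KD, against 901 and 884 and 934 and 795 in Luc KD. YL-1, whose yeast counterpart binds H2A.Z, had 395 and 432 in Arp6 KD, against 493 and 413 in Luc KD. For these 5 genes the groups overlapped. Apart from Arp6, the actin-related gene Bap55 (829 and 766 in Arp6 KD, against 953 and 832 in Luc KD), the reader gene Ing3 (155 and 161, against 166 and 177) and Eaf6 (89.8 and 89.8, against 115.3 and 92.4) lay below their control without overlap. With Arp6 these were 4 of 19 (21.1%), close to the 20.4% of all genes. DMAP1 lay above its control without overlap (470.3 and 459 in Arp6 KD, against 410.5 and 439.6 in Luc KD), and E(Pc) and Nipped-A, a scaffold of the complex, overlapped with theirs. Among actins, Act42A had 17894 and 16059 in Arp6 KD, against 14331 and 13415 in Luc KD.

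Other gene lists had small medians, and neither limma nor edgeR without the replicate block called any of their members, whereas DESeq2 called Hml of the hemocyte list and Hsc70-3 of the ER chaperone list. By list, 0 to 8 genes had an unadjusted p under 0.05 (limma), against 6.97% of all genes tested. The largest counts were 8 of 28 mitosis genes and 7 of 85 cytosolic ribosomal protein genes. Next came 5 of 28 hemocyte genes, 5 of 21 heat shock genes and 4 of 16 ER chaperone genes. All 85 tested cytosolic ribosomal protein genes were above 0, with a median of 0.15 (0.21 in pair 1 and 0.10 in pair 2), and for 49 of them both Arp6 KD values lay above both Luc KD values, against a background of 18.6%. RpL26 had 19008 and 16749 in Arp6 KD, against 15022 and 14021 in Luc KD, and RpS19b had 436 and 410.5, against 363 and 329. The median of this list was 0.03 under quantile normalization and 0.05 without Arp6 KD replicate 1, and the 1852 genes of highest expression had a median of 0.06. The 72 mitochondrial ribosomal protein genes had a median of -0.07 (-0.05 in pair 1 and -0.09 in pair 2), with 26 of them below their control without overlap, against a background of 20.4%, and 1 above. mRpL32 had 201 and 190.1 in Arp6 KD, against 239 and 239 in Luc KD.

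Hemocyte genes had a median above 0 in Arp6 KD. Of 28 tested, 21 were above 0, against 47.1% of all genes. The median was 0.14 (0.14 in pair 1 and 0.12 in pair 2), and 0.03 under quantile normalization. Without overlap, 8 of the 28 (28.6%) were above their control, against 18.6% of all genes, and 3 (10.7%) below, against 20.4%. The summed hemocyte values were 364315 and 337813 in Arp6 KD, against 317234 and 296100 in Luc KD, and their part in the differences of the other lists was not tested. The NF-kappaB factor gene dl (Dorsal), of the Toll pathway, had 833 and 787 in Arp6 KD, against 623 and 569 in Luc KD (log2 difference 0.44, adjusted p = 0.251, limma). The Toll and Imd list had a median of 0.05 (0.03 in pair 1 and 0.01 in pair 2), with 6 of 35 above their control without overlap, against 18.6% of all genes, and 3 below, against 20.4%.

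Both stress lists had medians above 0. The 21 tested heat shock genes had a median of 0.12 (0.13 in pair 1, 0.10 in pair 2 and 0.03 under quantile normalization). Without overlap, 9 of them were above their control, against 18.6% of all genes, and 3 below, against 20.4%. Hsp68 had 1220.1 and 1237 in Arp6 KD, against 943 and 933 in Luc KD, and Hsp26 had 2796 and 2729, against 2315 and 2194. Of the 16 genes of ER chaperones and the unfolded protein response, with a median of 0.07 (0.07 in pair 1, 0.09 in pair 2 and 0.02 under quantile normalization), Hsc70-3, the chaperone BiP of the endoplasmic reticulum, had 24389.5 and 22581 in Arp6 KD, against 19616 and 18289 in Luc KD. Calr (Calreticulin) had 15847 and 14586 in Arp6 KD, against 13365 and 12715 in Luc KD.

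Among growth and chromatin lists, 28 mitosis genes had a median of 0.07 (0.09 in pair 1 and 0.10 in pair 2). Without overlap, 10 of them were above their control, against 18.6% of all genes, and 4 below, against 20.4%. Incenp, of the chromosomal passenger complex, had 1419 and 1245 in Arp6 KD, against 1149.9 and 989 in Luc KD, and the kinesin gene pav had 1331 and 1263, against 1036 and 1027. The centromeric histone gene cid lay the other way, with 79.6 and 72.8 in Arp6 KD, against 97.3 and 88.5 in Luc KD. The 22 DNA replication genes had a median of 0.05 (0.03 in pair 1 and 0.13 in pair 2), and PCNA had 3027 and 2755 in Arp6 KD, against 2702 and 2466 in Luc KD. Of the 15 tested genes of histone variants and chaperones, with a median of 0.11 (0.08 in pair 1, 0.12 in pair 2 and 0.06 under quantile normalization), His3.3A had 1746 and 1532 in Arp6 KD, against 1427 and 1287 in Luc KD. Without overlap, 7 of the 15 were above their control, against 18.6% of all genes, and 2 below, against 20.4%. The 15 heterochromatin genes had a median of 0.08 (0.05 in pair 1 and 0.08 in pair 2) and the 19 nucleosome remodeler genes one of 0.05 (0.03 and 0.04). By the same measure, 6 heterochromatin genes (40%) were above their control and 1 (6.67%) below. Of the remodeler genes 7 (36.8%) were above and 2 (10.5%) below. Mi-2 was 1 of those below, with 4749 and 4701 in Arp6 KD, against 5109.6 and 5066 in Luc KD. The lists of proteasome, ecdysone, JAK/STAT, microRNA, actin, piRNA and neuronal genes had medians between -0.04 and 0.03. The lists of 4 to 6 markers of glia, epithelium, neurons and muscle had medians of 0.11, 0.02, -0.13 and -0.22, and the pair values of these lists are in the plot of list medians. In the neuronal list elav had 171 and 176 in Arp6 KD, against 150.2 and 158 in Luc KD, and brp, a protein of the presynaptic active zone, had 39.8 and 75.7, against 62.4 and 108.

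**Figure D5:**
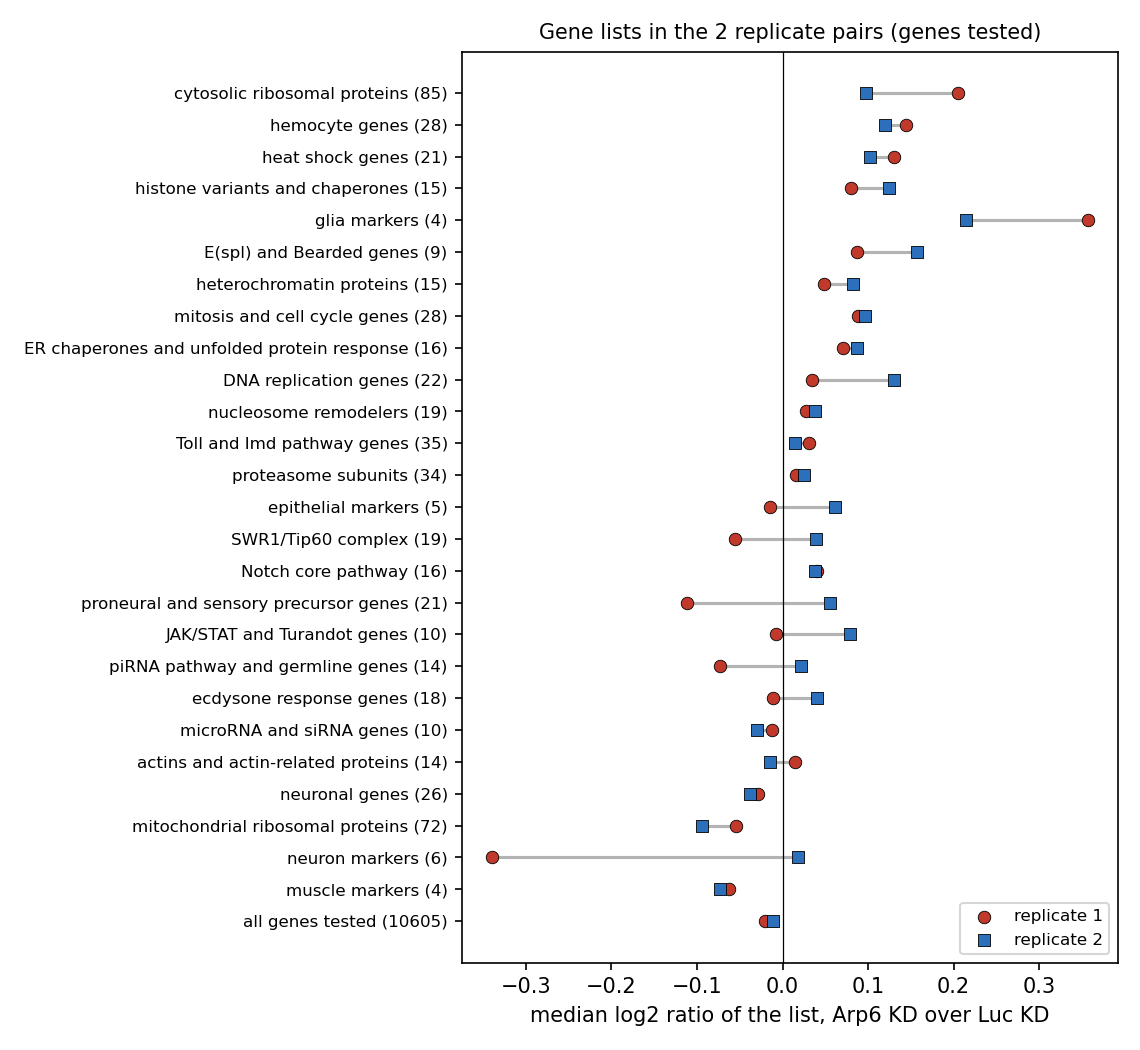
Median log2 ratio of Arp6 KD over Luc KD (horizontal) of each gene list in replicate 1 (red circles) and replicate 2 (blue squares), with the number of genes tested in brackets and all genes tested at the bottom. Cytosolic ribosomal protein genes lie at 0.21 and 0.10, mitochondrial ribosomal protein genes at -0.05 and -0.09, and lists of 4 to 6 markers spread widely.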

How the data were processed

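RNA sequencing of 4 libraries (Arp6 KD and Luc KD, 2 each) was read from 1 deposited table, and 6 libraries of set 1 defined gene lists. The authors deposited a signal per gene, read counts divided by a size factor. Reads were recovered from it, since 100% of the values were whole multiples of 1 read within 0.001 reads. The submitters' processing notes name Partek and BDGP6. Not given in the sources used here were the aligner, the counter and the use of strand. The labels name an MGIEasy and a TruSeq kit, not which library had which. Of 11799 gene identifiers 11749 were found in the BDGP6 annotation, and 11742 had the same coordinates. Rows without a gene identifier were left out, and gene rows held 99.8% of the reads.

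Genes whose mean reached 1 were tested with limma 3.58.1 (R 4.3.3), fitted to log2(value + 1) with an intensity trend. P-values were adjusted after Benjamini and Hochberg, at a threshold of 0.05. The 1 added before the log understates changes of low genes. The fit was checked on simulated data with large changes, only in genes of higher expression and with no effect of the replicate number. That check does not cover small changes or scarce genes. Permutation of 2 against 2 libraries could not reach that threshold. edgeR 4.0.16 and DESeq2 1.42.0 ran on the recovered reads as alternatives. Python 3.11.15 with pandas 2.3.3 read the tables. Set 1, deposited as 2 tables, was rescaled with median-of-ratios size factors from its 6 libraries, and the Luc KD columns beside R29G were taken as its controls. Other alternatives were TMM and quantile scaling, pseudocounts of 0.5 and 4, mean minimums of 10, 100 and none, no intensity trend, the replicate number as a block and leaving out each library.

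Genes were named by rule: Arp6, ac, da and His2Av; the SWR1 and Tip60 genes; the 12 higher and 12 lower with the largest smaller ratio of both pairs, and 8 of opposite sign; up to 12 Ac-dependent genes; 6 higher and 6 lower of the H2A.Z lists; 3 of each of 27 lists; and called genes. Only genes with a mean of at least 20 entered the rules on ratios. The members and lists were chosen with earlier results of these data known. Intervals cover counting error only.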

Additional observations from a re-analysis of the deposited data

How the results depend on the processing

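The 3 calls became 1 under TMM scaling, 0 under quantile normalization, 0 with no filter on low values, 0 without the intensity trend and 16 with DESeq2, and 0 to 6 when a library was left out. Labels give both groups the numbers 1 and 2 without saying what a number marks; deviations from the group means correlated at 0.50 between libraries of the same number (7976 genes, 2 pairs). With the replicate block limma called 0 genes, the 3 called genes lying at an adjusted p of 0.0502. edgeR with the replicate block called 870 (10.8% of 8087). Of the genes it tested, it called 4 of 17 proneural genes (da, ac, nvy and emc). It called 4 of 19 SWR1 and Tip60 genes (Arp6, His2Av, dom and Bap55) and 1 of 22 Ac-dependent genes. Of the higher and lower H2A.Z lists it called 121 of 279 and 65 of 258. Further calls were 14 of 24 hemocyte, 9 of 19 heat shock, 7 of 16 ER chaperone, 10 of 28 mitosis and 47 of 84 cytosolic ribosomal protein genes. In contrast, 4 of 72 mitochondrial ribosomal protein, 0 of 33 proteasome and 0 of 15 Notch genes were called. The log2 difference of ac was between -1.29 and 0.14 with a library left out (0.14 without Arp6 KD replicate 1), that of Arp6 between -2.24 and -0.25, and that of da between -1.30 and -0.12. The median of the Ac-dependent genes ran from -0.86 to 0.34. Genes at least 2-fold higher in both pairs, 1 as reported, numbered 2 under quantile normalization, with a pseudocount of 0.5 and with a mean minimum of 10, and 0 with a minimum of 100; those lower, 3 as reported, numbered 8 and 1 at these minimums. The medians of the H2A.Z lists were 0.142 and -0.157 under quantile normalization, 0.098 and -0.091 with lists from the fit of set 1 with the table as a block, -0.186 for the lower list under TMM, and 0.125 to 0.227 and -0.231 to -0.120 with a library left out. The causes were not tested. Lists with a median above 0 numbered 16 of 26, and 15 to 19 over the alternatives. With 2 libraries a group and 9396318 to 10608470 reads a library, genes with few reads could show large differences only.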

Other observations

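Genes of the mitochondrial genome had a median below 0. Over the 12 with a mean of at least 20 the median log2 difference was -0.16, at -0.16 in pair 1 and -0.17 in pair 2, whereas the medians of the chromosome arms and of chromosome 4 lay between -0.01 and 0.03. The cytochrome b gene mt:Cyt-b had 54213 and 59426 in Arp6 KD, against 64691 and 68071 in Luc KD, and the complex I subunit gene mt:ND5 had 12232 and 14156, against 15545 and 18477. The large ribosomal RNA mt:lrRNA, with 368315 and 336698 in Arp6 KD, against 358135 and 360176 in Luc KD, did not separate the groups. None of these genes passed the limma test, with adjusted p-values of 0.592 for mt:ND3, 0.648 for mt:ND5 and 0.702 for mt:Cyt-b.

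The dosage compensation RNA lncRNA:roX1, which coats the X chromosome of male cells, had 34522 and 33213 in Arp6 KD, against 30385 and 28677 in Luc KD, and lncRNA:roX2 had 325 and 333, against 260.2 and 281. The median of X-linked genes was 0.0004. The mitochondrial and roX genes were chosen after their values were seen.

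Genes of opposite sign show the spread of single pairs. CG8907 had 15.3 and 35.0 in Arp6 KD, against 38.1 and 16.5 in Luc KD, with log2 ratios of -1.26 and 1.04, and CG13077 had 26.5 and 18.9, against 14.8 and 29.2, with log2 ratios of 0.80 and -0.60. The TGF-beta ligand gene mav had 15.3 and 26.5 in Arp6 KD, against 23.3 and 17.5 in Luc KD. RpL22, a cytosolic ribosomal protein gene, was high in 1 library, with 2206 and 924 in Arp6 KD, against 1065 and 861 in Luc KD.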
